A study of Mus musculus with 20 samples.

Results

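Cell bodies (somata) of subcerebral projection neurons labelled knockout (KO) for Bcl11b were compared with wild-type (WT) somata of the same neuron type, by RNA-seq of mouse cortex at postnatal day 1. The comparison used every library that the sample titles assign to somata, which is 10 of the 20 libraries of the series. The WT group had 5 libraries, from experiments 12, 14, 22, 25 and 26. The KO group had 5 libraries, from experiments 14, 15, 22, 25 and 26. The other 10 libraries were made from growth cones (the motile tips of axons). They are used below only to show where the soma values differ and in the alternative fit of all 20 libraries. No agent or further allele is named for any group. The Bcl11b allele, how the neurons were labelled and sorted, and whether a library pools animals are not given in the sources used here. Nothing in the labels says that the libraries of a group came from separate animals, so all p-values measure the spread between these samples, which may in part be technical. Values in CPM, which are counts scaled to the library size, are given below in the order of the experiment numbers above, first for WT and then for KO-labelled libraries.

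Subcerebral projection neurons are the large pyramidal neurons of cortical layer V that send axons to brainstem and spinal cord. Bcl11b (also called Ctip2) is a zinc-finger transcription factor that acts downstream of Fezf2 in these cells and is needed for the outgrowth, bundling and targeting of their axons. It binds DNA and can recruit the NuRD complex, which remodels nucleosomes and removes acetyl groups from histones, so it is mostly known as a repressor, although it can also activate genes. Its close paralog Bcl11a is expressed in other cortical projection neurons as well.

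Library totals were 18962308 to 36059112 counts in WT somata and 35243688 to 51205154 in KO-labelled somata, and 17639 to 20084 genes per library had at least 1 count. The targeted gene went against the labels. Bcl11b stood at 503 CPM in WT library 26, 554 in 12, 738 in 25, 741 in 22 and 758 in 14. The KO-labelled libraries lay above all of these, with 1009.6 CPM in 25, 1059 in 22, 1069.7 in 15, 1106 in 14 and 1156 in 26. By edgeR the adjusted p was 0.0153 at a log2 fold change of 0.71 ± 0.12 (± SE, as below). That call held in all 10 leave-one-out fits, each without 1 library, and was lost in 5 of the other 14 alternatives (all 20 libraries in 1 fit, the experiment as a replicate block, the 4 shared experiments alone, and detected genes or library total as a covariate), with an adjusted p of up to 0.279. A count over a whole gene says nothing about single exons and so does not check a deletion of part of the gene. Groups are therefore named by their labels, and the direction of each difference below rests on those labels. Fezf2, the factor that specifies these neurons, had a mean of 286 ± 28.4 CPM (± SD over 5 libraries, as below) in WT and of 339 ± 22.7 CPM in KO-labelled somata. The GABA-synthesis gene Gad2 was at 8.20 ± 6.62 and 3.69 ± 1.66 CPM. Of 11 interneuron markers tested, 6 had a log2 fold change above 0, the list median was 0.20, and Npy was the 1 call. All 8 astrocyte markers had a log2 fold change above 0 (median 0.95) and none passed by edgeR, by DESeq2 or by limma-voom, nor did any reach an unadjusted p under 0.05. Their summed level ran from 23.1 to 319 CPM in WT libraries and from 138 to 467 CPM in KO-labelled libraries. Markers of the oligodendrocyte lineage, microglia, vessels, blood and cycling cells gave 0 calls by the 3 tools and 0 unadjusted p-values under 0.05. Microglial markers summed to 3.29 to 85.2 CPM in WT and 6.95 to 89.1 CPM in KO-labelled somata. Of 7 markers of radial glia and intermediate progenitors tested, 2 had an unadjusted p under 0.05, with 0 calls by edgeR and limma-voom and 1 by DESeq2, and the list summed to 34.4 to 125 CPM in WT and 54.4 to 160.2 CPM in KO-labelled libraries. The progenitor factor Pax6, which had the lowest p among them, was at 0.249 ± 0.225 and 1.68 ± 1.40 CPM (adjusted p 0.256). Of 3 Cajal-Retzius markers, 1 had an unadjusted p under 0.05, with 0 calls by edgeR and limma-voom and 1 by DESeq2, and the list summed to 43.2 to 105 CPM in WT and 26.3 to 58.7 CPM in KO-labelled libraries. Among these Reln, the secreted protein reelin, was at 72.7 ± 25.4 and 32.1 ± 11.1 CPM (adjusted p 0.117). Of the 3 Cajal-Retzius markers, 2 had a log2 fold change above 0, and their median was 0.22. Of 7 markers of striatal projection neurons, Foxp1 was called lower, and the list summed to 284 to 436 CPM in WT and 174 to 336 CPM in KO-labelled libraries. Of these 7, 4 had a log2 fold change above 0, and the list median was 0.07. The part of such cells in the results below was not tested. In bulk samples, fewer cells of a type and less RNA per cell cannot be told apart.

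KO-labelled somata held more RNA of the peptide transmitter genes Npy and Cck, the peptide convertase gene Pcsk2, the ERK phosphatase gene Dusp6, the actin regulator genes Gsn and Cnn3, and the transcriptional regulator genes Etv1, Tle4 and Bcl11a. They held less RNA of the calcium-sensor genes Hpca, Nrgn and Pcp4, the Wnt ligand gene Wnt5a, the cadherin genes Cdh13 and Cdh4, and the receptor gene Sstr1. By edgeR's quasi-likelihood test with Benjamini-Hochberg adjustment, 109 of 14911 genes tested (0.731%) passed a false discovery rate (FDR) of 0.05, and "called" below means this. Of these, 62 (0.416% of genes tested) were higher and 47 (0.315%) lower in KO-labelled somata. Counts of called members of gene lists below are to be read beside the 0.731% of all genes. The lists were chosen with earlier results of these data known, so a higher share does not test a class. The groups did not overlap for 108 of the 109, where 466 (3.13%) of all genes tested did not overlap. The median size of the log2 fold change was 1.21 among called genes and 0.222 among all genes tested, and the median signed log2 fold change of all genes was -0.00297. Of the called genes, 106 were protein coding.

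Not every call was equally firm. Across all 10 leave-one-out fits, 61 of the calls held (35 higher, 26 lower), and 48 were lost in at least 1 fit. The number of calls was 67 without soma 22 labelled KO and 68 without WT soma 22. Calls of Npy, Eln, Pid1, Ephx4, Camk1, Selenom, Dner and Cdh13 held under all 24 alternatives in scaling, test, filter, covariates and libraries, and no called gene changed direction under any of them. Of the 109 calls, 27 held when all 20 libraries shared 1 fit, 30 with the experiment as a replicate block and 35 with the library total as a covariate. Exons of 34 called genes overlap another gene on the opposite strand and those of 5 overlap one on the same strand. Whether reads were counted by strand is not given in the sources used here, so reads of such a pair cannot be told apart. Among called genes described in the text this holds for Pcsk2 with Pcsk2os1 and Pcsk2os2, Camk1 with Ogg1, Ermn with Galnt5, Hpca with Tmem54, Zdhhc2 with Cnot7, Gmpr with Atxn1, Pkmyt1 with Paqr4, Dner with Mir5126, Rcan3 with Mir700, and Pcp4 with Igsf5. It also holds, with partners that carry only a clone or model identifier, for Ppfibp1, Eln, Cnn3, Ephx4, Tpbg, Slc29a1, Wnt5a, Wnt7b, Limch1, Cxxc5, Bcl11a, Tox, Foxp1, Cdkn1a, Ptprr, Tbc1d5, Rasgrp2, Hs3st4, Hs3st2, Ccnd2 and Smarca2.

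**Figure D1:**
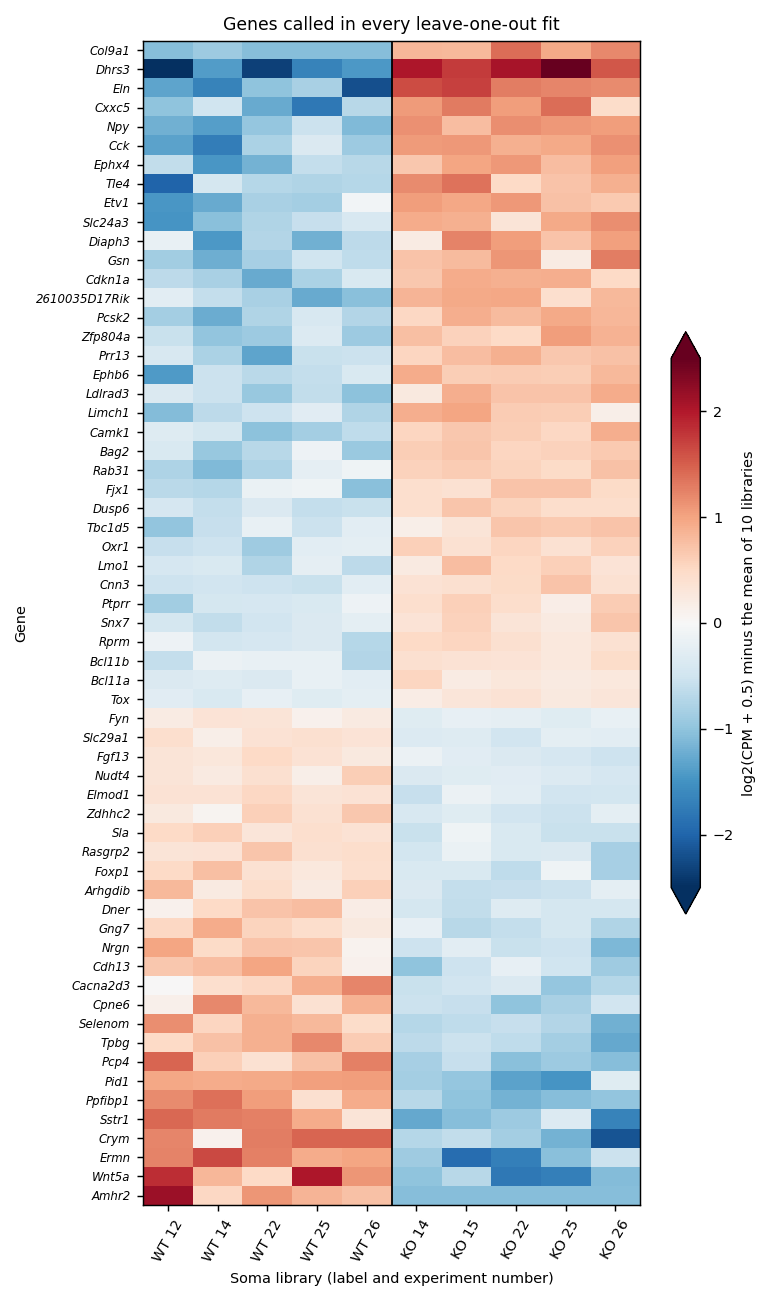
Heat map of the 61 genes called in all 10 leave-one-out fits, 35 higher and 26 lower in somata labelled KO. Rows are genes ordered by log2 fold change, columns are the 10 soma libraries, and colour is log2(CPM + 0.5) minus the mean of the gene over the 10 libraries, with the ends of the colour scale clipped; the WT block on the left and the KO-labelled block on the right have opposite colours in nearly every row, and Crym in WT 14 is paler than in the other WT libraries.

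**Figure D2:**
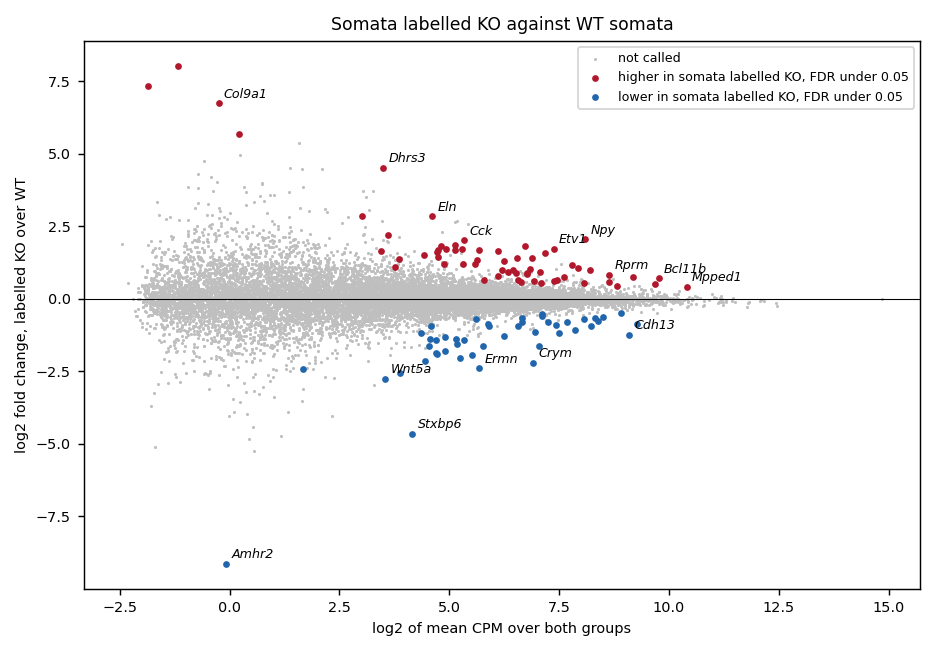
Log2 fold change of KO-labelled over WT somata (vertical axis) against the log2 of the mean CPM over both groups (horizontal axis) for the 14911 genes tested by edgeR. Red points are the 62 genes called higher and blue points the 47 called lower; the points at the far left and top, and Amhr2 at the bottom, have a group at or near 0 counts, so their fitted fold changes are no measure of size.

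Stretches of promoter are shown for 2 higher and 2 lower genes, because the paralog BCL11A is known to bind the letters TGACCA and members of both directions hold them close to their start. The windows came from RefSeq (GRCm38.p6) and ran from 250 bp before to 50 bp after an annotated start, with more than 1 window for some genes; a window was found for 81 of the 109 called genes. TGACCA on either strand was found in a window of 12.8% of the 47 higher genes (6 genes), 17.6% of the 34 lower genes (6 genes) and 12.4% of the 10345 tested genes that had one, and of 15.4% of all 27025 genes in the RefSeq table (13.6% of its 32851 windows). Each sequence is written 5′ to 3′ on the strand of its gene, upstream of a RefSeq start, and the capitals mark TGACCA, or TGGTCA where it lies on the other strand. A match is a description of letters and not a bound site. The 4 stretches lie at chr3:121426291-121426349 (plus strand, Cnn3), chr17:65772753-65772834 (minus strand, Rab31), chr16:96467427-96467512 (plus strand, Pcp4) and chr10:81001557-81001615 (minus strand, Gng7). The Gng7 stretch belongs to a second start inside the gene, 13580 bp downstream of the 5′ end of the counted gene.
Cnn3: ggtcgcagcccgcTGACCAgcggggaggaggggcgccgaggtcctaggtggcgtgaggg
Rab31: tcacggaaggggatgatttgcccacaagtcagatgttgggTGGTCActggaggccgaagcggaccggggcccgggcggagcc
Pcp4: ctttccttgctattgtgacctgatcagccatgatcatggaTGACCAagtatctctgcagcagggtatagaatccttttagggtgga
Gng7: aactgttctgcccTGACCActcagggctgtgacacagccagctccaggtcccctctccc
The gene with these letters nearest to its start among the 4 was Rab31, at 42 bp before it, and those of Pcp4 began 139 bp before it. Cnn3 and Rab31 were higher and Pcp4 and Gng7 lower in KO-labelled somata, because 2 genes of each direction were picked for display.

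The gene with the lowest p encodes a neuropeptide. Neuropeptide Y (Npy, ENSMUSG00000029819.6, plus strand of chromosome 6, 49822710 to 49829507, GRCm38) encodes a peptide transmitter released from dense-core granules. Npy was counted at 93.3, 82.8, 109.5, 147 and 99.2 CPM in WT libraries and at 474, 365, 478, 454 and 439.9 CPM in KO-labelled libraries. The lowest KO-labelled library, 15, lay above the highest WT library, 25, and the mean was 4.16 times the WT mean (edgeR adjusted p 0.000196). Cholecystokinin (Cck, ENSMUSG00000032532.7, minus strand of chromosome 9, 121489824 to 121495694), a peptide that many cortical pyramidal neurons co-release with glutamate, was counted at 12.2, 9.20, 18.02, 24.2 and 16.4 CPM in WT and at 66.2, 67.3, 58.9, 60.8 and 69.6 CPM in KO-labelled libraries. The KO-labelled values of Cck lay close together, and the WT values were spread more widely and lay below them all. This is a log2 fold change of 2.01 ± 0.23 (edgeR adjusted p 0.00253). Of 26 neuropeptide precursor genes tested, these 2 (7.69%, against 0.731% of all genes) were called higher, 0 were called lower, and the list median was 0.05. Nts, the neurotensin precursor, had means of 9.78 ± 10.3 and 60.7 ± 25.99 CPM and did not pass (adjusted p 0.130). Cartpt, the precursor of the CART peptides, had means of 3.02 ± 0.975 and 0.366 ± 0.246 CPM (adjusted p 0.130). Without Npy, the list of interneuron markers summed to 27.1 to 63.8 CPM in WT and 13.7 to 63.7 CPM in KO-labelled libraries.

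Genes that process and store peptides gave a single call. Pcsk2 (ENSMUSG00000027419.9, plus strand of chromosome 2, 143546156 to 143816285), the prohormone convertase that cleaves peptide precursors inside granules, was counted at 69.2, 52.4, 73.6, 94.03 and 74.98 CPM in WT libraries and at 180.1, 234, 217, 240.4 and 223 CPM in those labelled KO. All KO-labelled libraries lay above all WT libraries, a mean ratio of 3.01 (edgeR adjusted p 0.000901). The other 21 of the 22 genes tested in this list were not called. Carboxypeptidase E, which trims the cleaved peptides, was at 1171 ± 129 and 1157 ± 86.2 CPM (Cpe, adjusted p 0.997). The granule proteins chromogranin A (75.7 ± 11.5 and 82.3 ± 19.4 CPM, Chga) and chromogranin B (181 ± 54.7 and 163 ± 30.9 CPM, Chgb) were not called either. On the receiving side, the somatostatin receptor gene Sstr1 (ENSMUSG00000035431.4, plus strand of chromosome 12, 58211772 to 58214444) was lower. Sstr1 held 45.1, 41.2, 39.8, 31.7 and 20.6 CPM in WT and 6.45, 7.56, 8.54, 12.8 and 4.84 CPM in KO-labelled libraries, and the groups did not overlap (log2 fold change -2.15 ± 0.30, edgeR adjusted p 0.00556).

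Called genes of ERK signalling and its feedback were all higher in KO-labelled somata. Growth factors act through the kinase ERK, which induces ETS transcription factors and its own phosphatases. Dusp6 (ENSMUSG00000019960.8, plus strand of chromosome 10, 99263231 to 99267489), the cytosolic phosphatase that removes phosphate from ERK, was counted at 79.6, 70.3, 83.6, 70.2 and 72.1 CPM in WT and at 144, 174, 158, 145 and 145 CPM in KO-labelled libraries. Both groups of Dusp6 values were narrow and well apart. Etv1 (ENSMUSG00000004151.17, plus strand of chromosome 12, 38779380 to 38870484), an ETS factor that marks layer V neurons, was counted at 48.9, 56.1, 76.8, 74.8 and 129 CPM in WT and 281, 268, 288, 226 and 213 CPM in KO-labelled libraries. WT 26 was the highest WT library for Etv1 and still lay below the lowest KO-labelled library, and the log2 fold change was 1.73 ± 0.23 (edgeR adjusted p 0.00475). Its relative Etv5 held 44.7, 46.96, 70.3, 64.7 and 52.9 CPM in WT and 104, 136, 100.5, 114 and 76.4 CPM in KO-labelled libraries (log2 fold change 0.92 ± 0.17, edgeR adjusted p 0.0347). Etv5 lost its call in 8 of the 10 leave-one-out fits (adjusted p up to 0.104 without soma 25 labelled KO). Of 38 genes of the pathway tested, these 3 (7.9%, against 0.731% of all genes) were called higher and 0 lower, and the list median was 0.03. Other feedback genes were not called: Spry4 had means of 3.48 and 6.38 CPM (adjusted p 0.894), Spred1 of 47.1 and 41.6 CPM (adjusted p 0.971) and Dusp4 of 17.01 and 20.4 CPM (adjusted p 0.934). Ptprr, a tyrosine phosphatase that binds and dephosphorylates ERK, was also higher, with 76.8 ± 13.8 CPM in WT and 142 ± 17.6 CPM in KO-labelled somata (log2 fold change 0.89 ± 0.14, edgeR adjusted p 0.0116); it is the 1 called gene of 17 receptor-type tyrosine phosphatases. Rasgrp2, a calcium-activated exchange factor for the GTPase Rap, was lower (76.1 ± 8.51 against 41.4 ± 6.70 CPM, edgeR adjusted p 0.0125).

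Of 47 genes for calmodulin regulators and EF-hand calcium sensors, 8 (17.02%) were called, against 0.731% of all genes tested. The list was chosen with earlier results of these data known, so this share is no test of the class. Calcium entering a neuron is read by calmodulin and by small EF-hand proteins, which pass it to kinases, phosphatases and channels. Of these 8, 3 were higher (Camk1, Camk1d, Kcnip3) and 5 lower (Hpca, Kcnip2, Nrgn, Pcp4, Rcan3). The list median was -0.16, against -0.00297 for all genes, and 23 members had an unadjusted p under 0.05. The kinase gene Camk1 (ENSMUSG00000030272.15, minus strand of chromosome 6, 113334124 to 113343984) was counted at 54.1, 49.7, 33.2, 37.3 and 43.8 CPM in WT and 98.00, 109, 104, 97.6 and 129 CPM in KO-labelled libraries, with no overlap (edgeR adjusted p 0.00253). Camk1d, which encodes another kinase of this family, had means of 43.1 ± 4.45 and 66.9 ± 7.04 CPM (adjusted p 0.0411), while Camk1g was at 68.96 ± 20.9 and 63.1 ± 13.1 CPM and was not called.

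Within the calcium sensors, relatives went opposite ways. Kcnip3 and Kcnip2 encode potassium channel-interacting proteins that bind Kv4 channels, and Kcnip3 is also known as the calcium-regulated repressor DREAM. Kcnip3 (minus strand of chromosome 2, 127456498 to 127522094) was counted at 9.0004, 16.1, 8.46, 27.8 and 14.2 CPM in WT and 52.3, 75.2, 37.5, 67.5 and 43.8 CPM in KO-labelled libraries, so that WT 25 came nearest to the KO-labelled values. Kcnip2 (minus strand of chromosome 19, 45791839 to 45816061) was counted at 67.6, 46.3, 65.8, 44.4 and 35.04 CPM in WT and 17.95, 31.1, 20.5, 16.8 and 11.9 CPM in KO-labelled libraries. The log2 fold change was 1.87 ± 0.33 for Kcnip3 (edgeR adjusted p 0.0264) and -1.40 ± 0.27 for Kcnip2 (edgeR adjusted p 0.0378). Hippocalcin (Hpca), a sensor that moves to membranes on calcium binding, held 40.9, 44.8, 41.9, 58.4 and 45.4 CPM in WT and 16.6, 8.03, 8.64, 25.7 and 7.23 CPM in KO-labelled libraries (edgeR adjusted p 0.0352). Pcp4, a small protein that binds calmodulin and speeds its exchange of calcium, held 58.1, 32.1, 27.7, 35.1 and 50.6 CPM in WT and 11.6, 13.9, 9.92, 10.95 and 9.80 CPM in KO-labelled libraries, with KO-labelled values in a narrow band well below the lowest WT library. Neurogranin (Nrgn), which holds calmodulin at the membrane, held 324, 226, 265, 265 and 172 CPM in WT and 114, 136, 110.5, 114 and 74.1 CPM in KO-labelled libraries (log2 fold change -1.19 ± 0.18, edgeR adjusted p 0.00917). Rcan3, a regulator of the calcium-dependent phosphatase calcineurin, held 67.7, 99.5, 84.2, 68.1 and 92.6 CPM in WT and 31.8, 35.8, 9.51, 26.1 and 30.1 CPM in KO-labelled libraries, where soma 22 labelled KO was lowest (log2 fold change -1.63 ± 0.29). Its relative Rcan1 was at 131 ± 15.5 and 138 ± 23.5 CPM and was not called (adjusted p 0.988). Camk1, Nrgn and Pcp4 held their calls in all 10 leave-one-out fits. Kcnip3 lost its call in 7 of them (adjusted p up to 0.0824 without WT soma 26), Kcnip2 in 8 (up to 0.114 without soma 25 labelled KO), Hpca in 9 (up to 0.108 without soma 22 labelled KO), Rcan3 in 6 (up to 0.0832 without soma 25 labelled KO) and Camk1d in 8 (up to 0.119 without soma 25 labelled KO). Outside the leave-one-out fits, Nrgn lost its call with all 20 libraries in 1 fit (adjusted p 0.606). Pcp4 lost its call with the replicate block and with the library total as a covariate (adjusted p up to 0.0659).

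**Figure D3:**
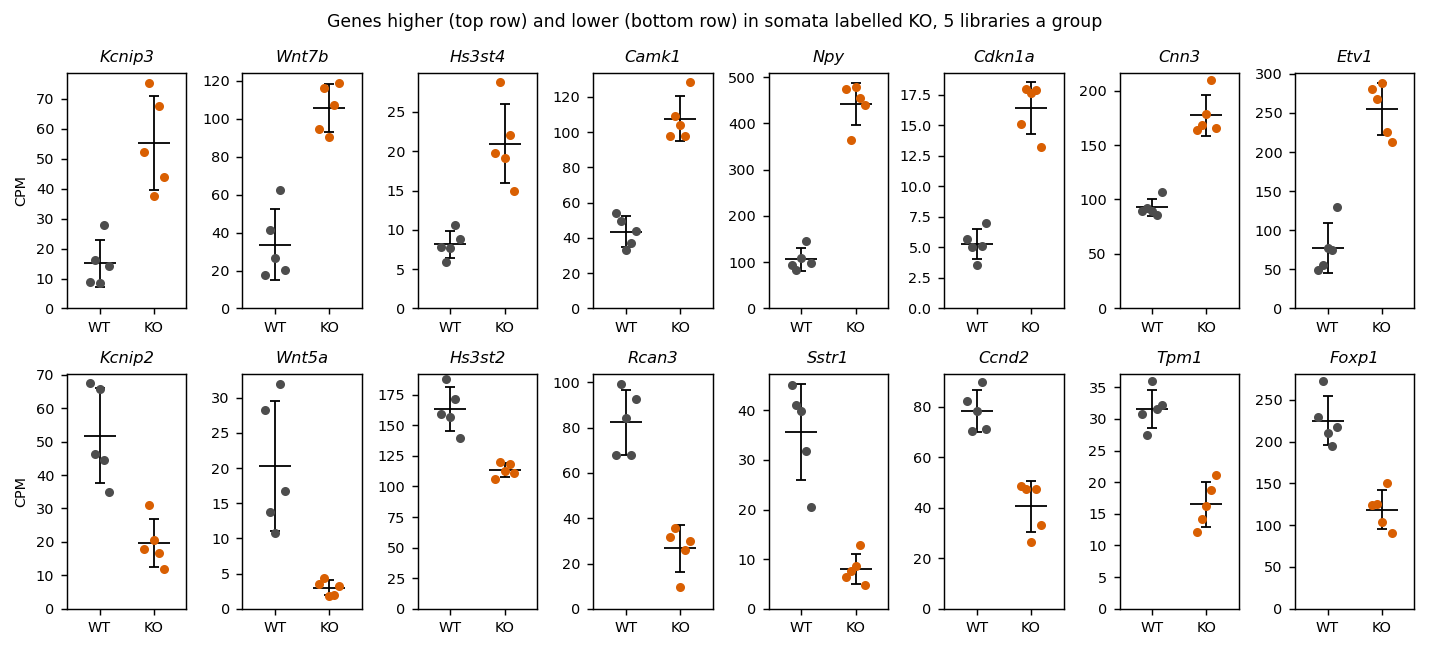
CPM of 16 called genes in each soma library (points, 5 a group), with the mean (horizontal line) and SD (error bar); every vertical axis is linear and starts at 0. Genes in the top row were higher and those in the bottom row lower in KO-labelled somata, and columns place Kcnip3 over Kcnip2, Wnt7b over Wnt5a and Hs3st4 over Hs3st2, relatives that went opposite ways; in none of the 16 panels do the groups overlap.

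Calcium and ion handling at the membrane gave few further calls. Cacna2d3, an auxiliary subunit of voltage-gated calcium channels, was lower (107 ± 34.4 CPM in WT and 44.01 ± 6.93 CPM in KO-labelled somata, log2 fold change -1.29 ± 0.21, edgeR adjusted p 0.0146), the 1 call among 29 sodium and calcium channel genes. Slc24a3, an exchanger that moves calcium and potassium out of the cell against sodium, was higher (18.4 ± 5.09 against 59.9 ± 11.99 CPM, log2 fold change 1.71 ± 0.23, edgeR adjusted p 0.00475). Fgf13, an intracellular protein that binds sodium channels and microtubules, was lower, with 370.3 to 438 CPM in WT and 217 to 282 CPM in KO-labelled libraries (edgeR adjusted p 0.00475). Gng7, a G protein gamma subunit, had 316 ± 58.4 and 149 ± 24.2 CPM (log2 fold change -1.08 ± 0.14, edgeR adjusted p 0.00475), the 1 call among 92 cyclic nucleotide and G protein genes. Of 16 GABA and glycine receptor genes, Gabra3, the alpha 3 subunit of the GABA-A receptor, was lower, with 111 to 141 CPM in WT and 62.6 to 93.7 CPM in KO-labelled libraries (log2 fold change -0.79 ± 0.14). Of 40 amine, acetylcholine and peptide receptor genes, 2 were lower and 0 higher. These were Sstr1 and Chrna5, the alpha 5 subunit of the nicotinic receptor, with 25.4 to 50.3 CPM in WT and 7.61 to 17.9 CPM in KO-labelled libraries. Prokr2, a prokineticin receptor gene outside that list and named after its values were seen, was lower as well (42.9 ± 13.4 against 17.1 ± 5.02 CPM, edgeR adjusted p 0.0427). Gabra3 lost its call in 6 leave-one-out fits (adjusted p up to 0.0763 without soma 25 labelled KO), Chrna5 in 9 (up to 0.110 without WT soma 22) and Prokr2 in 7 (up to 0.136 without soma 22 labelled KO). None of 23 glutamate receptor genes was called by edgeR, with 5 at an unadjusted p under 0.05, 3 calls by DESeq2 and 1 by limma-voom.

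Called transcription factor genes were mostly higher. Over both lists of transcription factors, 178 genes were tested, with 7 calls upward, 1 downward and a median log2 fold change of 0.05. Among the 58 factors of cortical identity, 5 were higher (Bcl11a, Etv1, Neurod6, Tle4, Tox), 1 was lower (Foxp1) and 24 had an unadjusted p under 0.05. Tle4 (ENSMUSG00000024642.17, minus strand of chromosome 19, 14448150 to 14598051), a Groucho-type corepressor abundant in corticothalamic neurons, was counted at 20.7, 62.4, 51.1, 49.9 and 51.7 CPM in WT and 192, 216, 119, 138 and 156 CPM in KO-labelled libraries. WT 12 was lowest and every KO-labelled library lay above every WT library (log2 fold change 1.80 ± 0.26, edgeR adjusted p 0.00693). The paralog Bcl11a (ENSMUSG00000000861.15, plus strand of chromosome 11, 24078056 to 24174123) was counted at 128, 132, 128, 145 and 136 CPM in WT and 238, 189, 199.7, 191 and 197 CPM in KO-labelled libraries (log2 fold change 0.60 ± 0.09, edgeR adjusted p 0.00807). Soma 14 labelled KO was the highest library for Bcl11a, and the other 4 lay together above the WT values. Tox, an HMG-box factor, had 80.1 ± 3.74 and 118 ± 5.27 CPM (edgeR adjusted p 0.00861). Neurod6, a basic helix-loop-helix factor of postmitotic pyramidal neurons, had 686 ± 77.6 and 968 ± 101 CPM (edgeR adjusted p 0.0491). Tcf4, which pairs with such factors and was called from the other list, had 432 ± 92.7 and 732 ± 85.6 CPM (edgeR adjusted p 0.0378). Foxp1 (minus strand of chromosome 6, 98925338 to 99522721), a forkhead repressor, was counted at 229.7, 272, 211, 195 and 218 CPM in WT and 124, 125, 104, 151 and 90.2 CPM in KO-labelled libraries (log2 fold change -0.92 ± 0.14, edgeR adjusted p 0.00917). Neurod6 lost its call in 8 leave-one-out fits (adjusted p up to 0.149 without soma 22 labelled KO) and Tcf4 in 8 (up to 0.112 without soma 25 labelled KO). Foxp1, Bcl11a, Tox, Tle4 and Etv1 held theirs in all such fits. With the replicate block, Foxp1, Bcl11a, Tox and Etv1 lost theirs. With the library total as a covariate, Foxp1, Bcl11a, Tox and Tle4 did. Foxp1 and Tox also lost theirs with all 20 libraries in 1 fit, and Foxp1 in the shared experiments alone.

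Outside these lists, Lmo1, a LIM-only adaptor of transcription complexes, was higher (49.8 ± 7.37 against 98.2 ± 14.9 CPM, edgeR adjusted p 0.00693). So was Zfp804a, a zinc-finger protein (11.1 ± 2.36 against 31.8 ± 4.98 CPM, edgeR adjusted p 0.00475). Of 48 NuRD, BAF and histone deacetylase subunits, Smarca2, an ATPase of the BAF remodelling complex, was called higher (219 ± 30.97 against 317 ± 21.8 CPM, log2 fold change 0.53 ± 0.11, edgeR adjusted p 0.0457). Smarca2 lost its call in 9 leave-one-out fits (adjusted p up to 0.139 without soma 22 labelled KO). The NuRD subunits Chd4 (34.1 ± 8.13 and 38.96 ± 6.58 CPM) and Hdac2 (449.9 ± 23.9 and 456 ± 23.1 CPM) were not called. Of the 10 corticothalamic markers, 9 had a log2 fold change above 0 and the median was 0.63, but only Tle4 and Hs3st4 were called. Zfpm2, a cofactor of GATA factors, had 18.3 ± 9.97 and 59.9 ± 19.2 CPM (adjusted p 0.103), and Syt6, a synaptotagmin, had 13.2 ± 8.08 and 45.8 ± 19.3 CPM (adjusted p 0.161). Of 12 markers of subcerebral projection neurons, Bcl11b and Diaph3 were higher and Cdh13, Crym, Pcp4 and Tcerg1l lower. Crym, a thyroid hormone-binding protein, was counted at 203, 93.5, 213, 240.3 and 238 CPM in WT and 52.8, 56.5, 48.02, 37.97 and 19.1 CPM in KO-labelled libraries, with WT 14 far below the other WT libraries but above all KO-labelled ones (log2 fold change -2.20 ± 0.31, edgeR adjusted p 0.00600). Crym held its call in every leave-one-out fit. It lost the call with the replicate block and with detected genes or library total as a covariate (adjusted p up to 0.161). None of the 11 callosal markers tested was called by edgeR, DESeq2 or limma-voom, with 1 unadjusted p under 0.05.

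**Figure D4:**
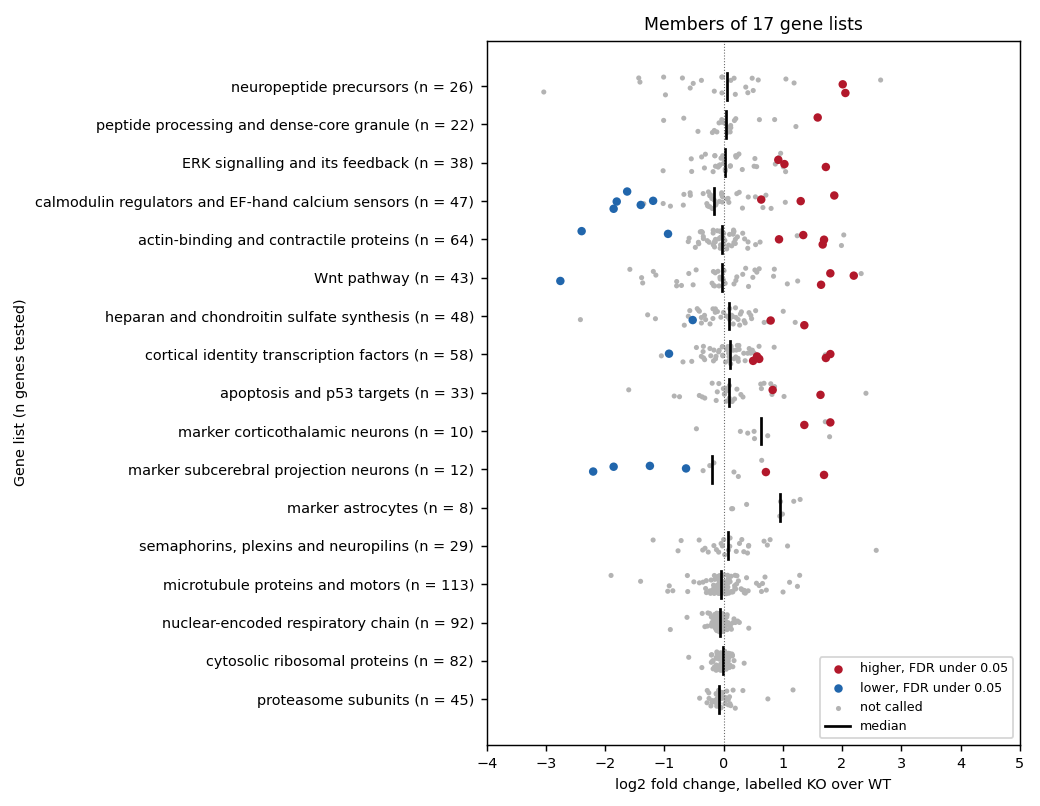
Log2 fold change of KO-labelled over WT somata (horizontal axis) for the tested members of 17 gene lists (rows, n genes tested beside each name); red and blue points are members called higher and lower, grey points were not called and the black bar is the list median. Calcium sensors show calls on both sides, neuropeptide and ERK lists show them on the right side alone, and the ribosomal, respiratory chain and proteasome lists have narrow spreads around 0 with no call.

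Wnt ligands split by direction. Secreted Wnt proteins act through Frizzled receptors; Wnt7b is known for beta-catenin signalling and dendrite growth, and Wnt5a for Ryk- and Ror-dependent signalling that repels corticospinal axons. Wnt7b (ENSMUSG00000022382.15, minus strand of chromosome 15, 85535437 to 85582473) was counted at 17.5, 41.5, 26.6, 62.5 and 20.3 CPM in WT and 94.8, 116, 90.4, 107 and 119 CPM in KO-labelled libraries. The WT values of Wnt7b varied widely, with 25 highest, and none reached the lowest KO-labelled library (log2 fold change 1.65 ± 0.31, edgeR adjusted p 0.0338). Wnt5a (ENSMUSG00000021994.15, plus strand of chromosome 14, 28504750 to 28527448) was counted at 28.3, 13.8, 10.8, 31.9 and 16.7 CPM in WT and 3.48, 4.44, 1.83, 1.97 and 3.29 CPM in KO-labelled libraries, a log2 fold change of -2.76 ± 0.40 (edgeR adjusted p 0.00652). Of 43 Wnt pathway genes tested, 3 were higher (Cxxc5, Tle4, Wnt7b) and Wnt5a was lower, with a list median of -0.03. Called genes made up 9.30% of this list, against 0.731% of all genes. Cxxc5, a zinc-finger protein that binds Dishevelled and restrains Wnt signalling, held 4.29, 6.32, 3.51, 2.30 and 5.48 CPM in WT and 19.9, 23.4, 19.4, 25.04 and 12.7 CPM in KO-labelled libraries (edgeR adjusted p 0.00693). The target gene Axin2 was low in both groups (0.393 ± 0.327 and 0.378 ± 0.284 CPM, adjusted p 0.999). Tpbg, a surface glycoprotein that modulates Wnt receptors, was lower (35.2 ± 7.05 against 11.4 ± 2.20 CPM, log2 fold change -1.62 ± 0.21, edgeR adjusted p 0.00395). Wnt7b lost its call in 8 leave-one-out fits (adjusted p up to 0.110 without WT soma 22), and Wnt5a, Cxxc5 and Tpbg in 0. All 3 lost theirs with the replicate block, Wnt5a and Cxxc5 with the library total as a covariate, and Wnt5a and Tpbg with all 20 libraries in 1 fit, with adjusted p-values of up to 0.719 for Wnt5a, 0.201 for Cxxc5 and 0.618 for Tpbg. Cxxc5 also lost it in the 8 libraries of the shared experiments. Of 19 Notch pathway genes, Dner, a transmembrane Notch ligand of neurons, was lower: it held 306, 397, 465, 486 and 322 CPM in WT and 207, 183, 225, 208 and 208 CPM in KO-labelled libraries (edgeR adjusted p 0.00630).

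Surface and matrix genes were called in both directions. Cadherins bind cells to each other, and of 88 cadherin and protocadherin genes 2 (2.27%, against 0.731% of all genes) were lower and 0 higher. Cdh13 (ENSMUSG00000031841.19, plus strand of chromosome 8, 118283733 to 119324921), a cadherin anchored by a lipid and marking subcerebral neurons, was counted at 779, 836, 965, 713 and 524 CPM in WT and 243, 341, 420.1, 343 and 263 CPM in KO-labelled libraries (log2 fold change -1.24 ± 0.18, edgeR adjusted p 0.00652). Cdh4, or R-cadherin, was counted at 130.3, 327, 232, 181 and 126 CPM in WT and 44.4, 91.5, 44.6, 87.6 and 54.5 CPM in KO-labelled libraries, with WT 14 highest (log2 fold change -1.63 ± 0.30, edgeR adjusted p 0.0327). Ephb6, an ephrin receptor without kinase activity, was higher, with 30.1, 56.1, 51.1, 53.7 and 62.5 CPM in WT and 155, 125, 127, 125 and 144 CPM in KO-labelled libraries (edgeR adjusted p 0.00334). It was the 1 call among 41 ephrin, netrin and Slit genes and their receptors. Ntm, or neurotrimin, an immunoglobulin adhesion molecule, was the 1 call of 39 in its list (382 ± 40.4 against 518 ± 34.6 CPM, log2 fold change 0.44 ± 0.09, edgeR adjusted p 0.0478). Cdh4 lost its call in 6 leave-one-out fits (adjusted p up to 0.104 without soma 22 labelled KO) and Ntm in 9 (up to 0.137 without soma 25 labelled KO). By edgeR 0 of 29 semaphorin, plexin and neuropilin genes were called, with 4 unadjusted p-values under 0.05 and 0 calls by DESeq2 and by limma-voom. For leucine-rich repeat and synaptic organiser genes the count was 0 of 45 by edgeR, with 4 unadjusted p-values under 0.05, 1 call by DESeq2 and 0 by limma-voom.

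Sulfotransferases that finish sugar chains on surface proteins went opposite ways. Hs3st4 and Hs3st2 both add the rare 3-O-sulfate group to heparan sulfate. Hs3st4 (plus strand of chromosome 7, 123982869 to 124398989) was counted at 7.78, 5.90, 7.70, 10.6 and 8.81 CPM in WT and 19.8, 28.8, 19.2, 22.05 and 14.98 CPM in KO-labelled libraries, and Hs3st2 (plus strand of chromosome 7, 121391859 to 121501770) at 159, 188, 156, 172 and 139.9 CPM in WT and 106, 119.8, 113, 118 and 111 CPM in KO-labelled libraries. The log2 fold change was 1.36 ± 0.25 for Hs3st4 (edgeR adjusted p 0.0268) and -0.52 ± 0.10 for Hs3st2 (edgeR adjusted p 0.0310), and neither gene's groups overlapped. Chst2, which sulfates N-acetylglucosamine and so acts outside heparan sulfate, was higher (50.2 ± 3.91 against 86.98 ± 15.5 CPM, edgeR adjusted p 0.0218). In all, 2 of 48 genes of heparan and chondroitin sulfate synthesis were higher and 1 lower, and 13 had an unadjusted p under 0.05. Hs6st1, a 6-O-sulfotransferase, narrowly missed the threshold (154 ± 23.02 against 103 ± 8.92 CPM, adjusted p 0.0516). Hs3st4 lost its call in 8 leave-one-out fits (adjusted p up to 0.0782 without soma 15 labelled KO), Hs3st2 in 8 (up to 0.0953 without soma 22 labelled KO) and Chst2 in 5 (up to 0.0723 without soma 22 labelled KO).

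In the extracellular matrix list, 2 of 92 genes (2.17%, against 0.731% of all genes) were called, both higher. Elastin (Eln, ENSMUSG00000029675.12, minus strand of chromosome 5, 134702593 to 134747323), the protein of elastic fibres, was counted at 5.96, 4.56, 7.57, 8.77 and 3.01 CPM in WT and 49.8, 52.2, 38.8, 37.2 and 36.3 CPM in KO-labelled libraries, a mean ratio of 7.14 (edgeR adjusted p 0.00130). Col9a1, a collagen of cartilage-type fibrils, had 0 counts in 4 WT libraries and 2 counts in WT 14, against 1.36, 1.34, 2.25, 1.51 and 1.89 CPM in KO-labelled libraries. Set against a floor of 3 counts in each WT library, this is at least 16.4-fold higher. Eln kept its call under all 24 alternatives; Col9a1 lost it in 5 of them.

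Actin regulators were called in both directions, 4 higher and 2 lower of 64 tested. Gelsolin (Gsn), which cuts and caps actin filaments, was counted at 23.1, 17.9, 23.9, 29.9 and 27.3 CPM in WT and 69.99, 73.8, 92.2, 49.3 and 104 CPM in KO-labelled libraries (log2 fold change 1.67 ± 0.21, edgeR adjusted p 0.00367). Calponin 3 (Cnn3), which binds actin and restrains myosin, held 89.6, 91.8, 89.3, 86.2 and 107 CPM in WT and 164, 169, 179, 209.6 and 166 CPM in KO-labelled libraries. Both groups were narrow, and WT 26 was the highest WT library (edgeR adjusted p 0.00216). Diaph3, a formin that nucleates actin filaments, held 25.1, 10.2, 17.01, 12.2 and 18.01 CPM in WT and 33.04, 68.6, 59.6, 47.1 and 58.9 CPM in KO-labelled libraries (log2 fold change 1.70 ± 0.27), and Limch1, an activator of non-muscle myosin, had 28.1 ± 5.81 and 71.3 ± 15.2 CPM (log2 fold change 1.34 ± 0.19). Ermin (Ermn), a protein of the cell cortex best known from oligodendrocytes, held 85.9, 115, 87.2, 68.9 and 72.5 CPM in WT and 19.3, 9.32, 10.7, 17.3 and 24.9 CPM in KO-labelled libraries, while the myelin genes beside it in the list of glial transcripts were not called. Tropomyosin 1 (Tpm1), which stabilises filaments, was lower as well, with 27.5 to 35.98 CPM in WT and 12.1 to 21.1 CPM in KO-labelled libraries (edgeR adjusted p 0.0454). Tpm1 lost its call in 9 leave-one-out fits (adjusted p up to 0.128 without WT soma 22), and the other 5 kept theirs in every such fit. All 5 lost theirs with all 20 libraries in 1 fit. Cnn3, Gsn and Limch1 also lost theirs with the replicate block, and Diaph3 and Limch1 with the library total as a covariate. Over the alternatives the adjusted p reached 0.896 for Ermn, 0.751 for Diaph3, 0.357 for Cnn3, 0.305 for Gsn and 0.124 for Limch1. Microtubule proteins and motors gave 0 calls of 113 by edgeR, with 10 unadjusted p-values under 0.05, 3 calls by DESeq2 and 0 by limma-voom.

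Some called genes of vesicle and membrane traffic had large decreases. Ppfibp1 (ENSMUSG00000016487.15), which encodes liprin beta 1, a scaffold at presynaptic and adhesion sites, was counted at 67.8, 78.1, 61.97, 39.3 and 56.5 CPM in WT and 18.2, 14.5, 12.8, 13.9 and 14.6 CPM in KO-labelled libraries. The KO-labelled values lay close together below all WT values, and Ppfibp1 was the 1 call among 53 synaptic vesicle and release genes. Stxbp6 (ENSMUSG00000046314.16, minus strand of chromosome 12, 44852484 to 45074709), or amisyn, an inhibitor of SNARE complex assembly, was counted at 34.1, 27.4, 30.1, 40.7 and 39.9 CPM in WT and 2.74, 1.56, 2.33, 0.0928 and 0.0292 CPM in KO-labelled libraries. Its log2 fold change was -4.66 ± 0.83 (edgeR adjusted p 0.0264), and the KO-labelled libraries were themselves uneven, with 25 and 26 far below the other 3. The call of Stxbp6 was lost in 6 leave-one-out fits (adjusted p up to 0.0750 without soma 15 labelled KO). Cpne6, a copine that binds membranes when calcium rises, was lower (58.3 ± 16.7 against 21.8 ± 3.25 CPM, log2 fold change -1.42 ± 0.21, edgeR adjusted p 0.00702). Zdhhc2, a palmitoyltransferase of synaptic scaffolds (192 ± 32.6 against 110.2 ± 9.25 CPM), and Elmod1, an activator of Arf GTP hydrolysis (419 ± 23.6 against 246 ± 30.1 CPM), were lower. In the other direction, the endosomal GTPase gene Rab31 (139 ± 40.3 against 308 ± 20.8 CPM), the Rab7 regulator Tbc1d5 (195 ± 40.2 against 392 ± 65.8 CPM) and the sorting nexin Snx7 (77.5 ± 7.54 against 141 ± 19.7 CPM) were higher (edgeR adjusted p 0.00809, 0.0116 and 0.00508). Stxbp6, Cpne6, Zdhhc2, Elmod1, Rab31, Tbc1d5 and Snx7 belong to no list above. They were placed together after their values were seen, so they do not speak for a class.

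Some members of the lists for apoptosis and p53 targets and for cell-cycle exit were called in these postmitotic neurons. Cdkn1a (ENSMUSG00000023067.14, plus strand of chromosome 17, 29090976 to 29100727), which encodes the cyclin-dependent kinase inhibitor p21, was counted at 5.66, 5.06, 3.57, 5.10 and 6.99 CPM in WT and 15.1, 17.99, 17.7, 17.9 and 13.2 CPM in KO-labelled libraries (log2 fold change 1.64 ± 0.26, edgeR adjusted p 0.0101). Rprm, the p53 target Reprimo, was counted at 346, 276, 282, 296 and 231 CPM in WT and 533, 552, 500.3, 456 and 497 CPM in KO-labelled libraries (log2 fold change 0.83 ± 0.11, edgeR adjusted p 0.00395). These were the 2 calls among 33 apoptosis and p53 genes, of which 11 had an unadjusted p under 0.05, and the list median was 0.09. Whether a p53 response differed between the groups was not tested. The p53 targets Mdm2 (46.6 ± 13.8 and 49.8 ± 6.11 CPM) and Bax (103 ± 20.5 and 106 ± 8.98 CPM) were not called. Cyclin D2 (Ccnd2) was lower, with 82.4, 70.3, 78.5, 90.1 and 71.1 CPM in WT and 48.5, 47.5, 26.7, 47.6 and 33.1 CPM in KO-labelled libraries (log2 fold change -0.95 ± 0.18, edgeR adjusted p 0.0338). Ccnd2 lost its call in 9 leave-one-out fits (adjusted p up to 0.0966 without WT soma 25), and Cdkn1a and Rprm kept theirs in every such fit. Cdkn1a lost its call with the replicate block, in the shared experiments alone and with the library total as a covariate (adjusted p up to 0.225). Rprm lost its call with the library total as a covariate (adjusted p 0.0584). Pkmyt1, a kinase that holds Cdk1 inactive (8.61 ± 1.33 against 18.6 ± 2.91 CPM), and Vrk1, a nuclear kinase (74.2 ± 3.41 against 115 ± 18.4 CPM), were called higher and were named after their values were seen. Pkmyt1 lost its call in all 10 leave-one-out fits (adjusted p up to 0.103 without soma 14 labelled KO) and Vrk1 in 9 (up to 0.110 without WT soma 22). The cycling-cell markers summed to 7.66 to 19.03 CPM in WT and 7.71 to 29.2 CPM in KO-labelled libraries.

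Signalling adaptors and metabolic genes made up much of the rest. Pid1 (ENSMUSG00000045658.16, minus strand of chromosome 1, 84036296 to 84364180), an adaptor that binds the receptor LRP1 and dampens insulin signalling, was counted at 71.6, 70.1, 70.8, 74.8 and 75.5 CPM in WT and 20.1, 18.4, 14.1, 12.9 and 29.4 CPM in KO-labelled libraries. Its WT values were nearly equal and its KO-labelled values all far lower, with 26 highest among them (log2 fold change -1.94 ± 0.21); it was the 1 call of 32 insulin pathway genes. Fyn, a Src-family kinase of axon guidance and adhesion signalling, held 549, 605, 601, 513 and 559 CPM in WT and 389, 415, 406, 389 and 418 CPM in KO-labelled libraries, a small but even difference (log2 fold change -0.49 ± 0.07, edgeR adjusted p 0.00721). Sla, an adaptor related to Src kinases, held 732 to 898 CPM in WT and 401 to 548 CPM in KO-labelled libraries. Selenom, a selenoprotein of the endoplasmic reticulum, held 69.3, 45.1, 57.2, 54.6 and 42.3 CPM in WT and 18.6, 19.8, 20.5, 18.4 and 13.1 CPM in KO-labelled libraries, the 1 call among 54 selenoprotein and glutathione genes. Dhrs3 (ENSMUSG00000066026.14, plus strand of chromosome 4, 144892827 to 144928209), a reductase that turns retinaldehyde back into retinol, was counted at 0.0596, 1.51, 0.550, 1.15 and 1.45 CPM in WT and 20.9, 17.2, 21.6, 33.1 and 14.9 CPM in KO-labelled libraries. WT levels of Dhrs3 were low, with at most 54 counts in a library, and its log2 fold change was 4.52 ± 0.63 (edgeR adjusted p 0.00597). Among 38 retinoic acid, thyroid and nuclear hormone genes, a list that did not hold Dhrs3, Crym was the 1 call. Ephx4, an epoxide hydrolase, was higher (12.3 ± 3.21 against 43.7 ± 5.14 CPM), as was Ldlrad3, a membrane receptor with LDL-type repeats (64.6 ± 12.6 against 171 ± 30.1 CPM, both edgeR adjusted p 0.00253).

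A few other called genes were placed together only once their values were known and do not speak for a class. Lower were 3 genes that act on purines or nucleosides: Gda, the guanine deaminase, held 35.9, 40.5, 50.9, 41.4 and 38.4 CPM in WT and 22.03, 10.5, 5.07, 12.02 and 5.13 CPM in KO-labelled libraries, Gmpr, the GMP reductase, had 59.9 ± 7.29 and 37.2 ± 2.23 CPM, and Slc29a1, a nucleoside transporter, had 123 ± 8.71 and 77.9 ± 4.86 CPM (edgeR adjusted p-values 0.0401, 0.0281 and 0.00600). The secreted TAFA-family genes Fam19a2 (171 ± 46.7 against 76.95 ± 20.9 CPM) and Fam19a5 (28.6 ± 5.41 against 12.5 ± 2.57 CPM) were lower. The adaptors Shd (17.9 ± 4.15 against 40.7 ± 6.70 CPM) and Dok5 (318 ± 44.5 against 474 ± 50.04 CPM) were higher. Gda lost its call in 9 leave-one-out fits (adjusted p up to 0.110 without WT soma 22), Gmpr in 7 (up to 0.0904 without WT soma 22), Fam19a2 in 8 (up to 0.126 without soma 22 labelled KO), Fam19a5 in 5 (up to 0.0702 without soma 22 labelled KO), Shd in 2 (up to 0.0591 without soma 22 labelled KO) and Dok5 in 8 (up to 0.137 without soma 22 labelled KO). Amhr2, the receptor of anti-Müllerian hormone, had 0 counts in all KO-labelled libraries and 4.14, 1.01, 1.74, 1.40 and 1.24 CPM in WT libraries, at least 26.6-fold lower against a floor of 3 counts in each KO-labelled library.

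Housekeeping classes, and the separate list of immediate early genes, gave no calls by edgeR. Cytosolic ribosomal proteins had 0 calls of 82, with 0 unadjusted p-values under 0.05 and 0 calls by DESeq2 and limma-voom. Nuclear-encoded respiratory chain genes had 0 calls of 92, with 2 unadjusted p-values under 0.05 and 0 calls by the other 2 tools, and their median log2 fold change was -0.06. Proteasome subunits had 0 calls of 45, with 5 unadjusted p-values under 0.05, 1 call by DESeq2 and 0 by limma-voom. Cholesterol synthesis and uptake genes had 0 calls of 27, with 2 unadjusted p-values under 0.05 and 0 calls by the other 2 tools, although 5 of the 27 had a log2 fold change above 0. Immediate early genes had 0 calls of 19, with 3 unadjusted p-values under 0.05, 3 calls by DESeq2 and 0 by limma-voom. Fosl2, an AP-1 factor, came nearest among them, with 4.08, 7.02, 3.27, 4.12 and 3.82 CPM in WT and 13.6, 9.60, 11.96, 20.01 and 11.5 CPM in KO-labelled libraries (edgeR adjusted p 0.0513). In all, 30 of the 68 lists held no called gene, and 46 of the 109 called genes lay in no list.

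Some called genes lay within 500000 bp of another on a chromosome. Whether such pairs are more frequent than among other genes was not tested. Pid1 and Dner, both lower, are neighbours on chromosome 1 at a gap of 5659 bp. Wnt5a and Cacna2d3, both lower, lie 377495 bp apart on chromosome 14, and Ldlrad3 and Fjx1, both higher, lie 262981 bp apart on chromosome 2. Fjx1, a Golgi protein of planar polarity, had 158 ± 42.9 CPM in WT and 329.5 ± 36.96 CPM in KO-labelled somata (edgeR adjusted p 0.0125). Amhr2, which was lower, and Prr13, a proline-rich protein gene which was higher (14.3 ± 3.28 against 39.00 ± 3.61 CPM), lie 4395 bp apart on chromosome 15. Around Bcl11b itself on chromosome 12, 0 of 15 genes tested within 1 Mb on either side were called by edgeR (1 had an unadjusted p under 0.05), 1 of 24 within 2 Mb (4.17%), 2 of 87 within 5 Mb (2.30%) and 2 of 147 within 10 Mb (1.36%), against 0.731% of all genes. These were Vrk1, higher, and Ifi27, lower. Ifi27, an interferon-inducible gene, had 25.1 ± 3.40 CPM in WT and 4.24 ± 2.34 CPM in KO-labelled somata, and its call was lost in 8 leave-one-out fits (adjusted p up to 0.0956 without soma 22 labelled KO).

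The genes called in somata were then looked up in growth cones, where groups came from other libraries of the same labels. Of the 109 genes, 103 were tested there, and for 1 of them, Rprm, the 5 growth cone libraries of each label did not overlap, against 0.48% of 15419 genes tested. Rprm was at 155 ± 25.8 CPM in WT growth cones and 105 ± 17.5 CPM in KO-labelled ones, lower where the somata were higher. Rprm was not called in growth cones (edgeR adjusted p 0.9995). Npy was at 164 ± 64.4 and 172 ± 68.4 CPM in growth cones (log2 fold change 0.07 ± 0.32), Cck had a log2 fold change of -0.18 ± 0.22, and Pcsk2 of 0.49 ± 0.45. Wnt5a had 0.70 ± 1.32 and Stxbp6 0.13 ± 0.56 on the same scale, with wide errors. Dhrs3 had a log2 fold change of 1.43 ± 0.58 in growth cones, and Etv1 of -0.25 ± 0.39. Neither was called there (edgeR adjusted p 0.9995 for both). A difference between the compartments was not tested here.

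**Figure D5:**
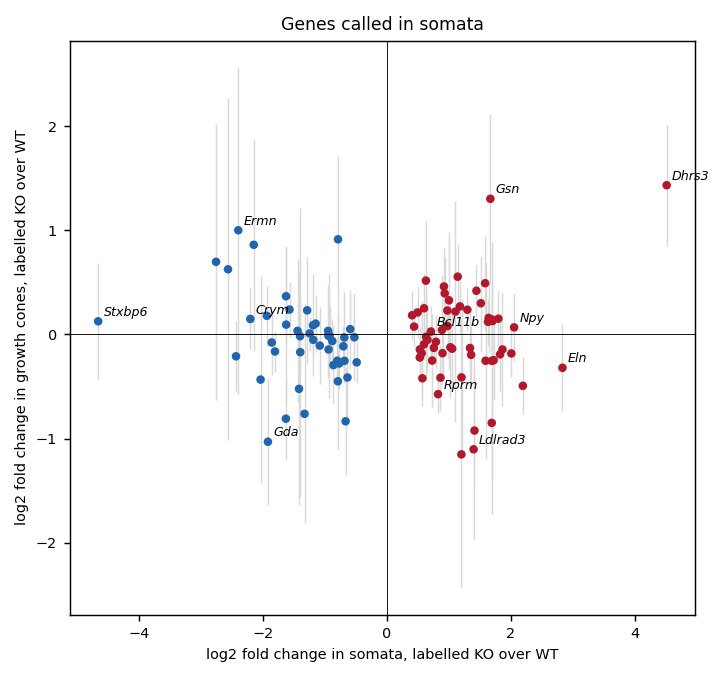
Log2 fold change of KO-labelled over WT in growth cones (vertical axis, with SE as grey bars) against that in somata (horizontal axis) for the 103 genes called in somata and tested in growth cones. Red points were higher and blue points lower in somata; the growth cone values lie around 0 for both colours, and Rprm at the lower right is the 1 gene whose growth cone groups did not overlap.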

How the data were processed

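The authors deposited unscaled counts of reads per gene for every library in a single featureCounts-style table, per the file headers. The submitters' processing notes name Trimmomatic 0.39, STAR 2.7.1a, featureCounts 1.5.0 and the build GRCm39. The table's own exon coordinates are those of GRCm38: 98.2% of 55487 genes have the exon list of GENCODE M21, which gave the symbols of 55227 genes. The labels' protocols name the RNeasy Plus Micro Kit for RNA, SMART-seq v4 for cDNA and Nextera XT for libraries. No molecular identifiers are named, so floors cover counting error only. The table has 0 columns without a sample and 0 entries that name no gene.

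Differences were tested with edgeR 4.0.16 (filterByExpr with a minimum count of 10, TMM scaling, quasi-likelihood F test, Benjamini-Hochberg adjustment over all genes tested, FDR 0.05) on the 10 soma libraries. CPM are relative to TMM-scaled totals, except that sums over a list use library totals. Errors are SD over n = 5 libraries, or SE for log2 fold changes. The code was tested on simulated data. Bcl11b was also tested by an exact permutation test of log2(CPM + 0.5). The rule named, in each direction, at most 25 called genes, those of lowest p (at least 5 CPM in the higher group, no overlap between groups, no symbol that is only an identifier), every called member of a list and, for a list with no call, its member with the lowest p; other genes are said to be chosen after their values were seen, or are uncalled members given beside a called relative. The members and the gene lists were chosen with earlier results of these data known, so lists are described by counts and medians with no test of the list. Alternatives covered scaling, DESeq2 1.42.0, limma-voom (limma 3.58.1), filters, threshold, dispersion, covariates, a replicate block and leaving out each library. Results for some genes are not reported here.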

Additional observations from a re-analysis of the deposited data

Results flagged for a closer look

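Single libraries stood apart from the other 4 of their group in 11 of 213 gene-by-group sets by Dixon's criterion for n = 5 (a gap of more than 0.71 of the range), and chance flags about 1 in 20. Among called genes, WT 26 was highest for Cnn3 (107 CPM, the others 86.2 to 91.8) and for Ntm (451 CPM, the others 348 to 375). WT 22 was highest for Elmod1 (460.3 CPM, the others 402 to 411). WT 14 was lowest for Crym (93.5 CPM, the others 203 to 240.3) and highest for Camk1d (50.7 CPM, the others 39.4 to 42.5). WT 25 was highest for Hpca (58.4 CPM, the others 40.9 to 45.4). Soma 14 labelled KO was highest for Bcl11a (238 CPM, the others 189 to 199.7). Each of these libraries lay nearer to the other group than the rest of its own group for Cnn3, Ntm, Crym and Camk1d, and farther from it for Elmod1, Hpca and Bcl11a.

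Among genes that were not called, WT 14 was highest for Fosl2 (7.02 CPM, the others 3.27 to 4.12), and WT 12 was lowest for Lrrtm3 (26.2 CPM, the others 75.3 to 89.6) and highest for mt-Rnr2 (856 CPM, the others 468 to 565). Soma 25 labelled KO was highest for the endothelial gene Cldn5 (29.2 CPM, the others 0 to 5.43).

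Rprm had opposite signs in the 2 compartments, with a log2 fold change of 0.83 in somata and -0.57 in growth cones and no overlap of libraries in either. It was not called in growth cones (edgeR adjusted p 0.9995), where groups did not overlap for 0.48% of 15419 genes tested. The difference between the compartments was not tested here.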

How the results depend on the processing

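The 109 calls were 107 with DESeq2 size factors, 111 with upper-quartile scaling or library totals alone, 106 with robust dispersion, 138 with limma-voom, 79 without a filter, 150 at a mean of at least 5 CPM, 159 at FDR 0.10 and 92 with detected genes as a covariate. They were 561 by the DESeq2 Wald test (347 higher, 214 lower, all 109 among them), 30 when all 20 libraries shared 1 fit (27 of the 109) and 42 with the library total as a covariate (35 of the 109). The cause of these changes was not tested. Leaving out 1 library gave 67 (without soma 22 labelled KO) to 107 calls, and 68 without WT soma 22. The log2 difference of Bcl11b ran from 0.64 to 0.79 in these.

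The experiment numbers 14, 22, 25 and 26 occur in both groups. Same-numbered libraries deviated together only weakly (correlations 0.0802, 0.0634, 0.0469 and -0.0461), so the numbers were not taken to pair the samples. With the experiment as a replicate block, 34 genes were called (18 higher, 16 lower, 30 of the 109), against 80 in the same 8 libraries with no block. Paired Bcl11b differences had a mean of 0.68 with 4 of 4 pairs higher (exact two-sided sign-flip permutation p = 0.125, the smallest that 4 pairs allow).

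No called gene changed direction. Uncalled genes did: C1qa (-0.015 with detected genes as a covariate), mt-Rnr2 (0.041 with the replicate block and 0.049 in the same 8 libraries with no block), Hbb-bt (-1.57 and -0.70 with detected genes or library total as a covariate) and Cldn5 (from -0.38 without soma 25 labelled KO to 1.603 without WT soma 26). Depth limits genes at or under 3 counts per library, which corresponds to a mean of 0.102 CPM in WT and 0.0717 CPM in KO-labelled somata.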
